A study of Drosophila melanogaster with 30 samples.

Results

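The genes described here encode the proteins of the cytosolic ribosome in Drosophila melanogaster. They were chosen by name, as probe sets with a single gene symbol that begins with RpL or RpS and a digit, or with RpLP and a digit, which leaves out the mitochondrial mRp genes. This gave 42 probe sets for 42 genes, out of 15309 probe sets on the array. A current RefSeq gene table (Release 6) holds 92 genes with symbols of this form, so 50 are not analysed here, and 11 probe sets that carry such a symbol together with another gene's fall outside the rule.

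The study measured RNA of adult virgin males from a laboratory stock founded with flies from the field, on 30 Affymetrix Drosophila Gene 1.0 arrays. Flies developed on poor or rich food for up to 3 generations, F0, F1 and F2, and the labels name neither the composition of the foods nor a tissue. Each of 10 diet histories had 3 arrays, numbered 1 to 3. A group's name strings together the food of each generation, P for poor and R for rich, and its last letter is the food of the measured flies themselves. In F0 the flies were raised poor (P) or rich (R). In F1 they were raised poor or rich by poor-raised parents (P-P and P-R) or by rich-raised parents (R-P and R-R). In F2 all parents were raised rich, and the flies were raised poor or rich after poor-raised grandparents (P-R-P and P-R-R) or rich-raised grandparents (R-R-P and R-R-R). All groups share the same stock and sex. Whether the 3 samples within a group were reared as separate cultures is not stated in the labels. P-values therefore cover only the spread seen among these samples, which could be technical. RNA from many cell types was pooled in each sample, so fewer cells of a type and less RNA per cell cannot be told apart.

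The ribosome is built of a small and a large subunit, each made of ribosomal RNA and a set of proteins, most of which are needed in equal number. In flies, as in other animals, nutrient signalling through TOR and Myc adjusts the making of ribosomes, and germ cells and growing tissues contain many of them. Ribosomal protein mRNAs are also known to be held back from translation when food is scarce, a step that a measurement of mRNA level does not show. Several fly genes have a second copy that is used mainly in the germline.

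Values are the authors' normalized expression values, taken as log2, with 1 unit for a 2-fold difference. By role the 42 genes comprise 3 stalk proteins, 3 genes that encode a ribosomal protein fused to ubiquitin or a ubiquitin-like protein, 12 further proteins of the large and 8 of the small subunit, 11 genes that are 1 of several copies, and 5 genes whose name ends in "-like". Their means over all arrays ran from 0.33 to 8.63, while array medians lay between 0.82 and 0.94. A mean of at least 2 was reached by 28 of the genes, among them 21 of the 26 with a standard name and 7 of the 16 copies and -like genes. The other 14 were dim, 10 of them under the array medians. These are the standard genes RpL17, RpL27, RpL28, RpS7 and RpS26, the copies RpL10Ab, RpL34a, RpL37-2, RpS5b, RpS10a, RpS19b and RpS28a, and RpLP0-like and RpL22-like. Whether the dim probe sets respond to their mRNA was not tested, and levels of different probe sets are not compared here.

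Some arrays stand apart from their labels or groups. In the groups R-P and P-R-R, the array numbered 2 carried ovary and yolk transcripts although it was labelled male. Of an ovary and yolk list, 26 genes were measured, and their average on these 2 arrays was 2.93 and 2.85, compared with 0.38 to 0.50 over the 28 others, where 22 to 25 of the 26 lay under the array median. Yp2, a yolk protein gene, read 8.10 and 9.05 against -0.06 to 0.81. The testis list averaged 3.68 and 3.69 on these arrays and 3.87 to 4.15 on the others. Replicates 1 and 3 of R-R had the lowest average of 6 fat body genes, 3.16 and 3.01, against 3.69 to 4.72 on the remaining 28. The results are given with all 30 arrays and with the 28 that lack ovary transcripts.

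The first question was whether ribosomal protein transcripts follow the food on which a fly itself developed. No member passed the test for own diet, averaged over the 5 pairs of poor-raised and rich-raised groups. Limma called 0 of 42 members at an adjusted p under 0.05, against 1.84% of all probe sets (281 of 15309). The members' median difference, poor minus rich, was -0.03, beside -0.0053 over all probe sets. Differences ran from -0.22 to 0.27, and 16 of 42 lay above 0. At an unadjusted p under 0.05 there were 5 members, all lower after poor food, which is 11.9% of the members against 10.2% of all probe sets in either direction and 5.1% lower. All 5 are among the 28 brighter genes, and of all 3958 probe sets with a mean of at least 2, 18.5% had an unadjusted p under 0.05.

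The precision of this average was enough to bound the differences in the measured values. The 95% confidence intervals had half-widths of 0.10 to 0.33 with a median of 0.14, and their outer bounds were -0.41 and 0.60. Intervals of all 42 members lay within 1 log2 unit of 0, and those of 41 within 0.5. The exception was RpL29, with an upper bound of 0.60. The 28 brighter members had a median half-width of 0.16. For the 14 dim members the intervals bound only the probe set's value, as its response to the mRNA was not tested. Without the 2 arrays that carried ovary transcripts, limma again called 0 members, against 1.66% of all probe sets. There 7 members had an unadjusted p under 0.05, all lower, which is 16.7% of the members, against 10.7% of all probe sets in either direction and 5.3% lower.

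**Figure D1:**
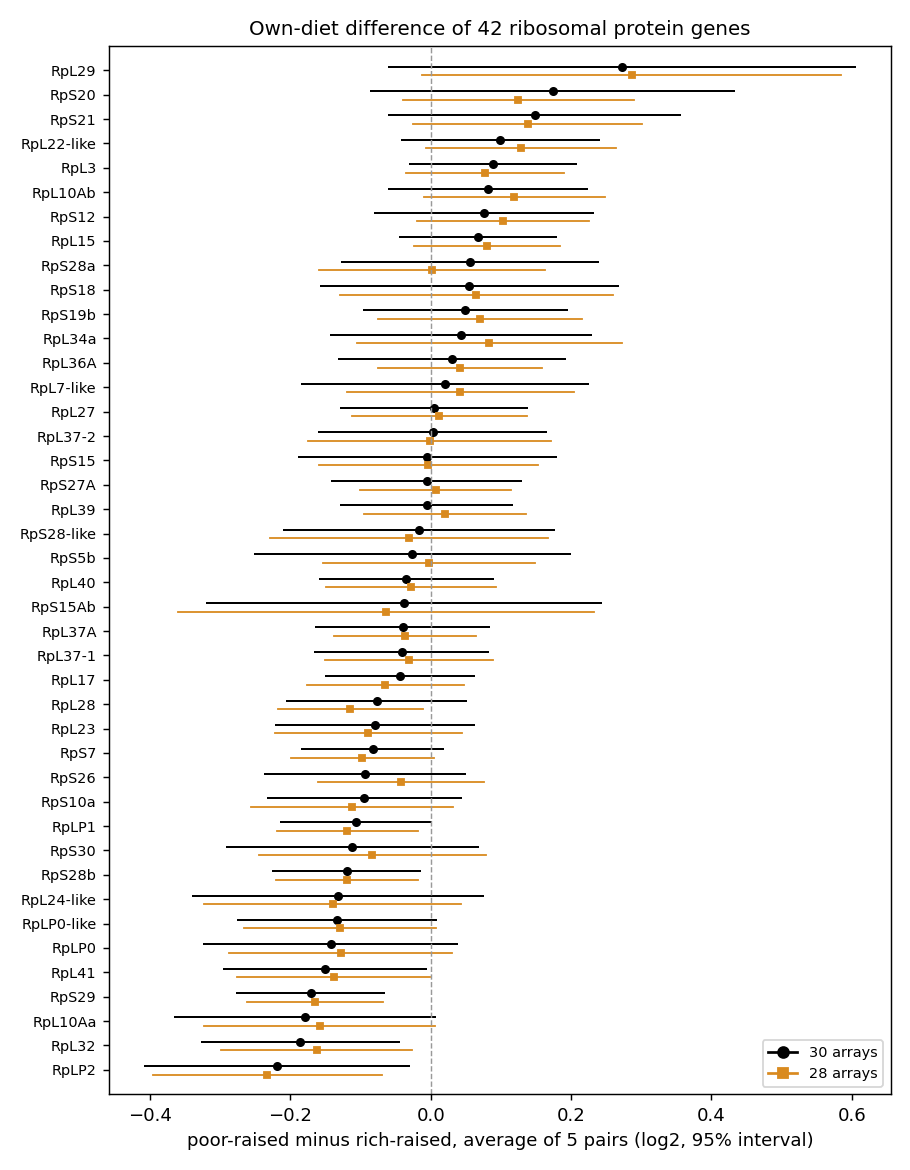
Own-diet difference of each of 42 ribosomal protein genes, poor-raised minus rich-raised on the log2 scale, as the average of 5 pairs with its 95% confidence interval, with all 30 arrays (black) and without the 2 arrays that carried ovary transcripts (orange). Differences run from -0.22 for RpLP2 to 0.27 for RpL29 with 30 arrays, and the 28-array values lie close beside them.

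RpS29, a small zinc-binding protein of the small subunit, came nearest to a call. It read 8.09, 8.13 and 7.84 in P, against 8.30, 8.12 and 8.30 in R. In F1 it read 7.78, 7.87 and 7.88 in P-P against 8.16, 7.98 and 8.03 in P-R, and 8.02, 8.25 and 7.91 in R-P against 8.04, 8.16 and 8.12 in R-R. In F2 it read 7.92, 7.97 and 8.01 in P-R-P against 8.05, 8.49 and 8.17 in P-R-R, and 8.07, 8.04 and 8.02 in R-R-P against 8.26, 8.11 and 8.08 in R-R-R. The poor-raised arrays lay wholly below the rich-raised ones in 3 of the 5 pairs, and the groups overlapped in F0 and in the F1 of rich-raised parents. The average difference was -0.17 ± 0.05 (SE), with a limma adjusted p of 0.0916, and -0.17 with an adjusted p of 0.0783 on 28 arrays. Over 39 alternative settings its adjusted p ran from 0.0433 to 0.179, and RpS29 passed in 3 of them: after quantile normalization (0.0433), without the R-P array numbered 2 (0.0472) and without the P-R-R array numbered 1 (0.048).

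The stalk proteins RpLP0, RpLP1 and RpLP2, which form the flexible arm of the large subunit that recruits translation factors, had own-diet averages of -0.14, -0.11 and -0.22. RpLP2 read 6.24, 7.02 and 6.49 in P against 6.79, 6.82 and 7.06 in R. In F1 its arrays read 6.42, 6.79 and 6.70 in P-P against 7.09, 6.94 and 6.71 in P-R, and 6.31, 7.14 and 6.47 in R-P against 6.86, 6.99 and 6.94 in R-R. The highest poor-raised array of the whole set is replicate 2 of R-P, which carried ovary transcripts. In F2 RpLP2 read 6.51, 6.64 and 6.73 in P-R-P against 6.67, 7.39 and 7.01 in P-R-R, and 6.84, 6.78 and 6.99 in R-R-P against 6.88, 6.33 and 6.88 in R-R-R. Its average of -0.22 ± 0.09 had a limma adjusted p of 0.361 with 30 arrays and 0.182 with 28.

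The ubiquitin fusion genes RpL40 and RpS27A, which supply the cell with ubiquitin as well as a ribosomal protein, and RpS30, which is fused to a ubiquitin-like protein, had own-diet averages of -0.03, -0.01 and -0.11. None of the 3 had an unadjusted p under 0.05 in this comparison.

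Among the 12 further proteins of the large subunit, with stalk proteins and copies left aside, RpL32 and RpL41 had the lowest own-diet averages. RpL32, often used as a reference gene in fly work under its old name rp49, read 1.83, 2.44 and 2.0 in P against 2.16, 2.07 and 2.17 in R. It read 1.93, 1.89 and 1.92 in P-P against 2.23, 2.22 and 2.17 in P-R, and 1.72, 2.11 and 2.19 in R-P against 2.39, 2.11 and 2.35 in R-R. In F2 it read 1.92, 1.89 and 2.13 in P-R-P against 2.11, 2.71 and 2.30 in P-R-R, and 2.11, 2.04 and 2.19 in R-R-P against 2.20, 1.82 and 2.09 in R-R-R. The groups were apart only in P-P against P-R, and the average was -0.19 ± 0.07 (limma adjusted p = 0.235, and 0.327 with 28 arrays). RpL41, which encodes a very short basic peptide, averaged -0.15 ± 0.07 (limma adjusted p = 0.449). Its arrays read 8.44, 8.45 and 8.53 in P-P against 8.88, 8.70 and 8.65 in P-R, but 8.59, 8.88 and 8.09 in P against 8.70, 8.47 and 8.78 in R, where they overlapped. In R-P they read 8.60, 8.84 and 8.49 against 8.73, 8.74 and 8.66 in R-R, again with overlap. In P-R-P they read 8.47, 8.23 and 8.57 against 8.77, 9.21 and 8.69 in P-R-R, where the groups were apart. In R-R-P they read 8.67, 8.73 and 8.75 against 8.65, 8.57 and 8.39 in R-R-R, where the poor-raised arrays were the higher ones.

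RpL29 had the highest own-diet average of the 42, at 0.27 ± 0.16, and the widest interval. It read 2.41, 3.11 and 2.35 in P against 2.28, 1.99 and 2.69 in R, and 3.53, 2.86 and 2.77 in R-R-P against 2.70, 2.15 and 2.78 in R-R-R. It read 3.0, 3.45 and 2.01 in R-P against 2.41, 1.92 and 3.10 in R-R, and the groups overlapped in all 3 of these pairs. In P-P against P-R, 2.26, 2.03 and 2.31 against 2.83, 2.24 and 2.08, the poor-raised mean was the lower one, by -0.18 as poor minus rich. RpL3, which lies at the peptidyl transferase centre, averaged 0.09. Of the 12 further large-subunit genes, 5 lay above 0, and the median was -0.02.

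In the small subunit RpS20 and RpS21 averaged 0.17 and 0.15, and the median of the 8 genes was 0.03. RpS20 read 2.75, 3.51 and 2.78 in P, against 2.86, 2.92 and 2.64 in R. It read 3.42, 3.33 and 3.17 in R-R-P, against 3.16, 2.61 and 2.59 in R-R-R. The R-R-P arrays lay above those of R-R-R, whereas 2 of the 3 P arrays lay within the range of R. RpS20's average includes a value of 4.28 on replicate 2 of R-P, and without the 2 ovary-transcript arrays its difference was 0.13.

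**Figure D2:**
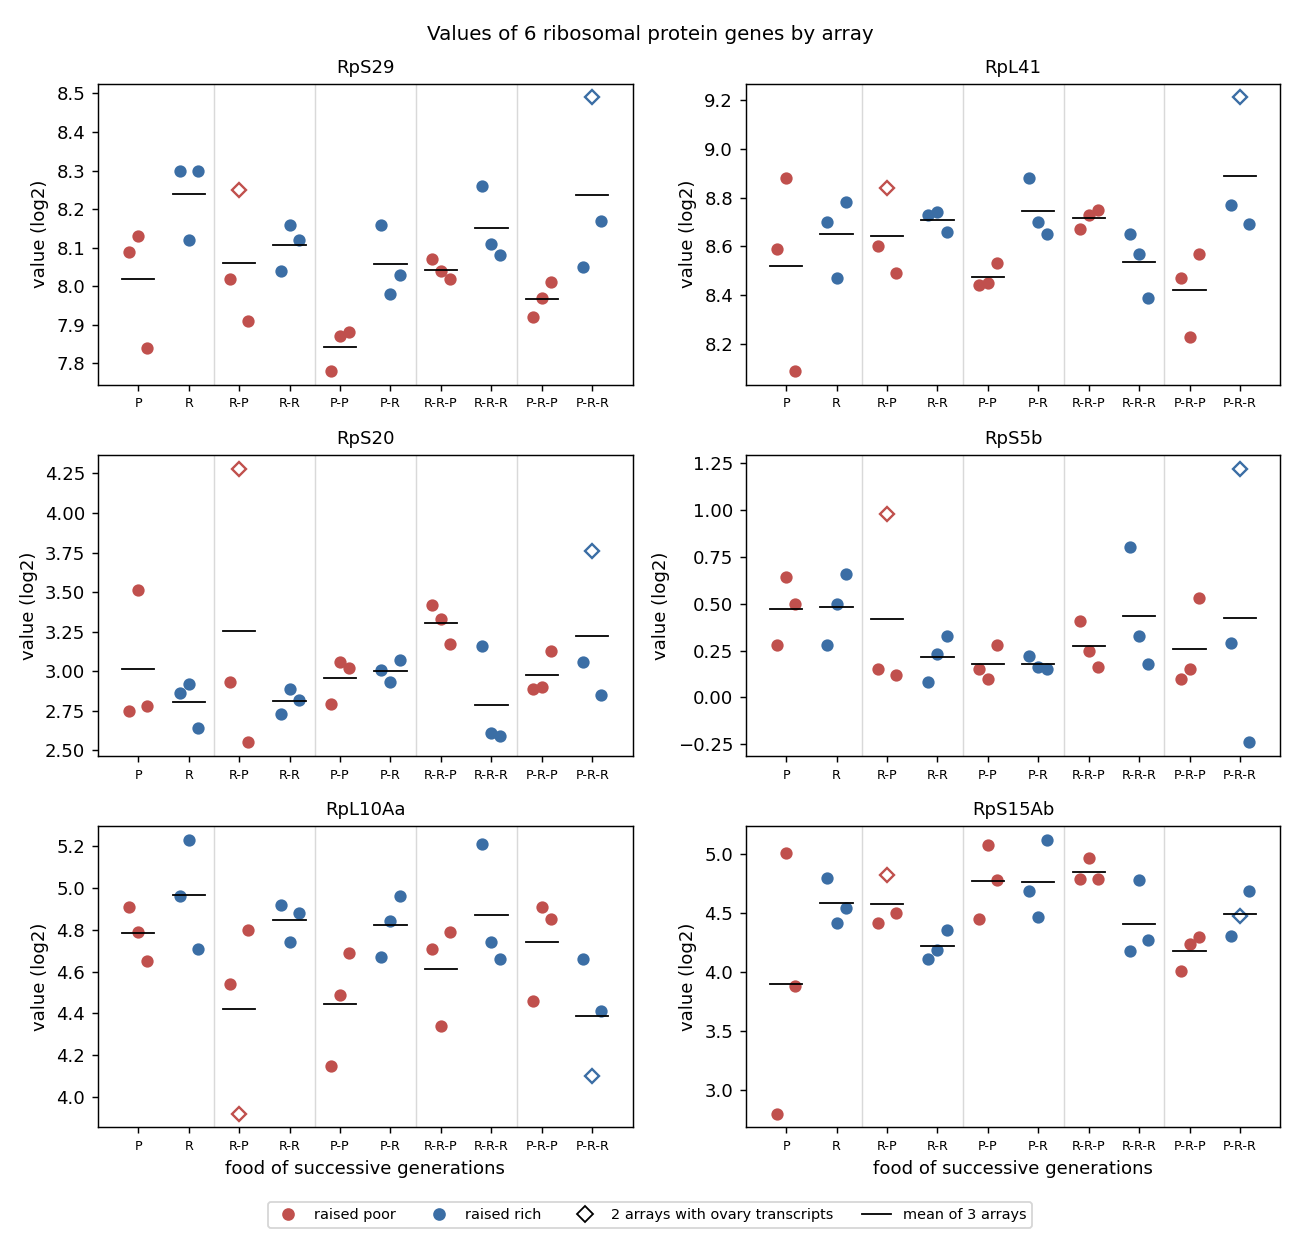
Values of RpS29, RpL41, RpS20, RpS5b, RpL10Aa and RpS15Ab on each of 30 arrays (log2, vertical axes differ), by diet history, with poor-raised groups (red) left of rich-raised groups (blue), the mean of 3 arrays as a line and the 2 arrays with ovary transcripts as open diamonds. RpS29 lay lower in the poor-raised group of each pair on average, and RpS20 and RpS5b were highest on the open diamonds, where RpL10Aa was lowest.

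The direction was the same in all 5 pairs for few members. RpS29, RpS28b, RpS7 and RpLP0-like lay lower in the mean of the poor-raised group of every pair, which is 4 of 42 members or 9.52%, against 4.55% of all probe sets. No member lay higher in every pair, against 4.49% of all probe sets. On 28 arrays the same 4 were lower in every pair (9.52%, against 4.91% of all probe sets). RpS12, known in flies for its part in competition between cells, was the 1 member higher in every pair (2.38%, against 4.67%). RpS7 and RpLP0-like are dim, with means of 0.79 and 0.46.

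The second question was whether the own-diet difference appears in a single generation or line. In F0, limma called 0 members (0.183% of all probe sets), and 3 members or 7.14% had an unadjusted p under 0.05 (6.25% of all probe sets). They were RpS28a (0.53 ± 0.20), RpL27 (0.31 ± 0.14) and RpS15Ab (-0.69 ± 0.31). RpS28a, a dim copy of RpS28b, read 1.19, 0.96 and 1.28 in P, against 0.71, 0.58 and 0.54 in R. Its 3 P arrays lay above the 3 R arrays, with a limma adjusted p of 0.533, and 0.291 on 28 arrays.

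RpS15Ab, the second copy of a small-subunit gene, was the most variable of these. It read 2.80, 5.01 and 3.88 in P, against 4.80, 4.42 and 4.54 in R. The lowest and the highest of these 6 values both belonged to P. The call depended on 1 array: without replicate 2 of P, the difference had a limma adjusted p of 0.0322, and the F test over all 10 groups one of 0.0223. With all arrays the adjusted p was 0.717 in F0.

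In the F1 of poor-raised parents (P-P against P-R) limma called 0 members (0.0523% of all probe sets). RpS10a was the 1 member (2.38%) with an unadjusted p under 0.05 (4.38% of all probe sets). RpS10a, a dim copy of a small-subunit gene with a known use in the fly germline, read 0.38, 0.35 and 0.45 in P-P against 0.59, 1.02 and 0.96 in P-R. The groups did not overlap, and the difference was -0.46 ± 0.15 with a limma adjusted p of 0.723. In the F1 of parents raised on rich food (R-P against R-R) limma called 0 members (0.601% of all probe sets), and 2 members had an unadjusted p under 0.05, or 4.76% (8.93% of all probe sets). They were RpL22-like (0.33 ± 0.15), a copy of RpL22 known from the fly testis, and RpL10Aa (-0.43 ± 0.20). RpL22-like read 0.66, 0.21 and 0.82 in R-P, against 0.10, 0.29 and 0.30 in R-R. Replicate 2 of R-P, which carried ovary transcripts, held the low value, and without it the difference was 0.51 (limma adjusted p = 0.266).

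The members' median difference was -0.01 in F0 with 16 of 42 above 0, and -0.07 in the F1 of poor-raised parents with 9 above 0, on 30 and on 28 arrays alike. In the F1 of rich-raised parents it was 0.0033 with 21 above 0 on 30 arrays, and -0.11 with 10 above 0 without the ovary-transcript arrays.

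On 28 arrays limma also called 0 members in these 3 pairs, against 0.189% of all probe sets in F0, 0.0719% in the F1 of poor-raised parents and 0.268% in the F1 of rich-raised parents. At an unadjusted p under 0.05 there were 4 members in F0 (7.45% of all probe sets), 4 in the F1 of poor-raised parents (4.96%) and 3 in the F1 of rich-raised parents (7.18%). RpS29 was among them in the first 2 of these pairs, at -0.22 and -0.21, and RpLP2 in the third, at -0.54 ± 0.19.

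In F2 the members' medians lay on opposite sides of 0 in the 2 lines. After poor-raised grandparents (P-R-P against P-R-R) the median of the 42 was -0.19, beside -0.01 over all probe sets, and 7 of 42 lay above 0. After rich-raised grandparents (R-R-P against R-R-R) the median was 0.13, beside 0.02, and 31 lay above 0. Over all probe sets with a mean of at least 2, the medians in these pairs were 0.0033 and 0.10. Those of the brighter members were -0.21 and 0.19. Limma called 0 members in the P-R-P pair (0.0719% of all probe sets) and 0 in the R-R-P pair (0.0588%). In the P-R-P pair 9 members had an unadjusted p under 0.05, all lower, or 21.4% (8.82% of all probe sets, and 5.43% lower). In the R-R-P pair there were 5, all higher, or 11.9% (7.75% of all probe sets, and 4.94% higher). Many brighter members moved together from array to array, as described below. Counts of members in F2 are therefore not counts of independent genes.

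The P-R-P pair contains 1 of the arrays with ovary transcripts, that of P-R-R. Without the 2 such arrays, the median of the P-R-P pair was -0.04, with 18 of 42 above 0, and that of the R-R-P pair stayed at 0.13. At an unadjusted p under 0.05 there were then 4 members in the P-R-P pair, 3 of them lower (6.09% of all probe sets, and 3.48% lower). There were 7 in the R-R-P pair, all higher (8.6% of all probe sets, and 5.59% higher). Limma called 0 of them, against 0.0392% of all probe sets in the P-R-P pair and 0.0849% in the R-R-P pair.

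The difference between the lines was tested as an interaction, the own-diet difference after poor-raised grandparents minus that after rich-raised grandparents. Limma called 0 members and 0% of all probe sets. The members' median was -0.33, beside -0.04 over all probe sets, and 14 members, or 33.3%, had an unadjusted p under 0.05 (7.64% of all probe sets). Of these 13 lay below 0 (4.93% of all probe sets lay lower) and RpL10Aa above. These members are not independent of each other, as many brighter members moved together from array to array. Limma again called 0 members and 0% of all probe sets on 28 arrays, where the median was -0.20, beside -0.03, and 7 members had an unadjusted p under 0.05, all lower (7.28% of all probe sets, and 4.74% lower). Over all 3958 probe sets with a mean of at least 2, the median was -0.10 with 30 arrays and -0.13 with 28. Of these probe sets 9.9% and 9.88% had an unadjusted p under 0.05. The 28 brighter members had medians of -0.43 and -0.27, and 13 and 5 of them had an unadjusted p under 0.05.

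RpL40 had the smallest p of the members in the F2 interaction. It read 6.84, 6.69 and 6.59 in P-R-P against 6.84, 7.30 and 7.03 in P-R-R, and 7.13, 7.01 and 6.90 in R-R-P against 6.60, 6.76 and 6.81 in R-R-R. The poor-raised arrays were the lower ones in the first pair, with a shared value of 6.84, and the higher ones in the second, with no overlap. The interaction was -0.64 ± 0.19 (limma adjusted p = 0.413), and -0.52 with an adjusted p of 0.559 on 28 arrays.

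RpL36A, near the exit site for transfer RNA on the large subunit, read 5.85, 5.63 and 5.93 in P-R-P against 5.96, 6.63 and 5.72 in P-R-R. It read 6.10, 6.16 and 6.02 in R-R-P against 5.71, 5.59 and 5.69 in R-R-R, where the groups were apart. The interaction was -0.73 ± 0.25, and -0.47 on 28 arrays. RpL23 differed by -0.59 and -0.48 and RpL41 by -0.65 and -0.49, in the same order of 30 and 28 arrays. RpLP0 (-0.70), RpS30 (-0.69) and RpS18 (-0.79) had an unadjusted p under 0.05 on 30 arrays and not on 28. RpS18 read 6.65, 6.69 and 6.66 in R-R-P, against 5.53, 6.43 and 6.44 in R-R-R, where 1 array was far below the others.

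**Figure D3:**
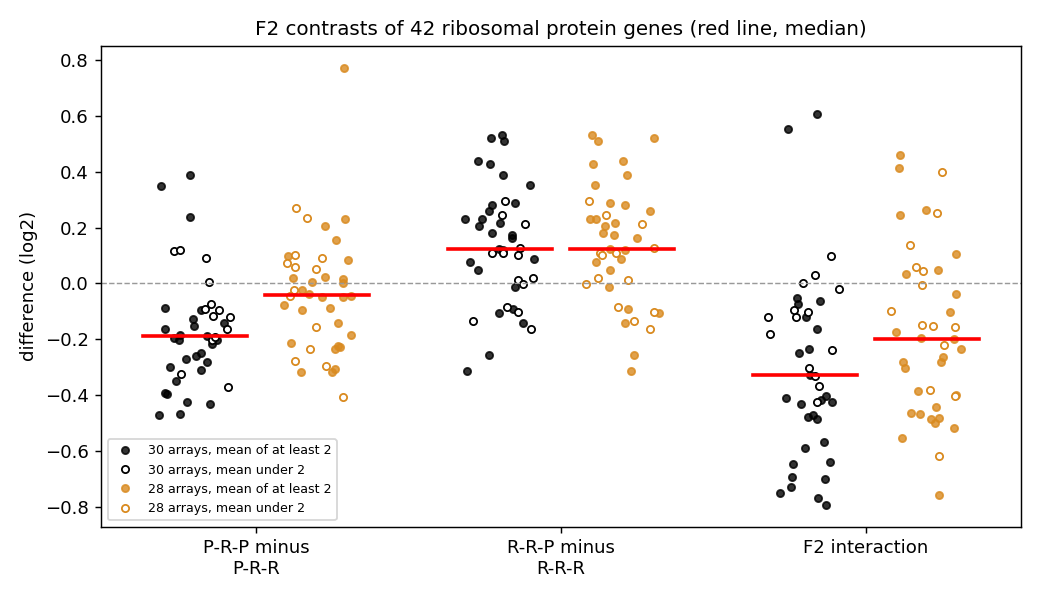
Differences of 42 ribosomal protein genes in F2 on the log2 scale, for P-R-P minus P-R-R, R-R-P minus R-R-R and the interaction (the first minus the second), with all 30 arrays (black) and with 28 (orange), and with genes whose mean is under 2 as open points. The medians (red lines) are -0.19, 0.13 and -0.33 with 30 arrays and -0.04, 0.13 and -0.20 with 28.

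The comparison of grandparental diets uses the same 4 F2 groups and so shares its arrays with the own-diet pairs. In rich-raised F2 flies (P-R-R against R-R-R) the members' median was 0.14 with 30 arrays and 0.07 with 28. In poor-raised F2 flies (P-R-P against R-R-P) it was -0.16 with both. On average over the 2 it was 0.01 with 30 arrays and -0.06 with 28. Limma called 0 members and 0% of all probe sets in each of these 3 comparisons, with 30 and with 28 arrays. An unadjusted p under 0.05 was found for 9 members in rich-raised flies (8.57% of all probe sets), 3 in poor-raised flies (5.13%) and 1 on average (5.51%). On 28 arrays there were 4 (7.18%), 8 (5.97%) and 3 (5.81%).

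RpL29 had the largest grandparental difference on average, -0.55 ± 0.26 with 30 arrays (limma adjusted p = 0.874) and -0.74 ± 0.23 with 28 (0.532). It read 1.66, 2.82 and 1.68 in P-R-R, against 2.70, 2.15 and 2.78 in R-R-R. It read 2.45, 1.87 and 3.01 in P-R-P, against 3.53, 2.86 and 2.77 in R-R-P. The groups overlapped in both comparisons. In rich-raised flies they did so only through the P-R-R value of 2.82, from the array that carried ovary transcripts.

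The parents' diet gave no call among the members in F1. Their median was -0.05 in poor-raised flies (P-P against R-P), 0.02 in rich-raised flies (P-R against R-R) and -0.01 on average. Without the ovary-transcript arrays it was 0.05 in poor-raised flies, with 27 of 42 above 0 rather than 12, and 0.05 on average. Limma called 0 members in each of them, against 0.0131% of all probe sets in poor-raised flies, 0.0523% in rich-raised flies and 0.0196% on average. Unadjusted, p was under 0.05 for 0 members in poor-raised flies (6.58% of all probe sets), 1 in rich-raised flies (5.49%) and 0 on average (6.77%). The 1 member was RpS10a at 0.42 ± 0.15, from 0.59, 1.02 and 0.96 in P-R against 0.68, 0.20 and 0.44 in R-R. On 28 arrays limma called 0 members, against 0% of all probe sets in poor-raised flies, 0.0523% in rich-raised flies and 0.0131% on average, and 1 member had an unadjusted p under 0.05 in each (5.58%, 6.21% and 7.07% of all probe sets).

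The F1 interaction, the own-diet difference under poor-raised parents minus that under rich-raised parents, had a median of -0.09 over the members with 30 arrays and 0.03 with 28. Limma called 0 members, against 0.00653% of all probe sets in both cases. With no adjustment, p was under 0.05 for 1 member with 30 arrays (4.87% of all probe sets), RpS10a at -0.52 ± 0.21, and for 2 with 28 (4.56%).

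Tests over several groups at once gave no call either. For a difference of the own-diet effect among the 5 pairs, limma called 0 members (0.0392% of all probe sets with 30 and with 28 arrays), and 1 member had an unadjusted p under 0.05 with 30 arrays (6% of all probe sets) and 2 with 28 (5.72%). For flies fed rich food in every generation (R, R-R and R-R-R), limma called 0 members (0.00653% of all probe sets with 30 and with 28 arrays), and 0 had an unadjusted p under 0.05 (7.48% of all probe sets with 30 arrays and 8.64% with 28). For any difference among the 10 groups, limma called 0 members (0.882% of all probe sets with 30 arrays and 0.699% with 28). There 0 members had an unadjusted p under 0.05 with 30 arrays (9.25% of all probe sets), and with 28 arrays RpS28a and RpS29 did (9.37%).

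Many of the brighter members moved together from array to array. For each array, the median deviation of the 28 brighter genes from their means over the 28 arrays without ovary transcripts was taken as its shift. It was -0.10, 0.27 and -0.15 on the arrays of P, and -0.0011, -0.06 and 0.11 on those of R. In F1 it was -0.11, 0.02 and -0.05 in P-P against 0.11, 0.05 and 0.01 in P-R, and -0.07, 0.28 and -0.11 in R-P against 0.03, -0.0082 and -0.02 in R-R. In F2 it was -0.08, -0.17 and 0.07 in P-R-P against 0.0048, 0.59 and 0.04 in P-R-R, and 0.15, 0.14 and 0.15 in R-R-P against 0.10, -0.07 and -0.05 in R-R-R. The 3 highest arrays were those numbered 2 of P-R-R, R-P and P. The first 2 carried ovary transcripts, whereas the ovary and yolk list averaged 0.38 to 0.49 on the arrays of P.

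Within groups the shift had a pooled SD of 0.16 over all arrays and 0.10 without the 2 arrays that carried ovary transcripts. The group means of the shift lay between -0.06 and 0.21 with 30 arrays, and between -0.09 and 0.15 with 28. R-R-P had the highest mean on 28 arrays, 0.15 ± 0.01 (SD, n = 3), against 0.06 ± 0.05 in P-R, the next in order. The R-R-P arrays were each higher than those of all other groups on the 28 arrays except replicate 2 of P. Over all 3958 probe sets with a mean of at least 2 the same median shift was 0.07, 0.05 and 0.03 on the R-R-P arrays, against 0.04, -0.12 and -0.05 on the R-R-R arrays. Its part in the members' values was not tested, and after quantile normalization the members' median in this pair was 0.08 rather than 0.13.

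**Figure D4:**
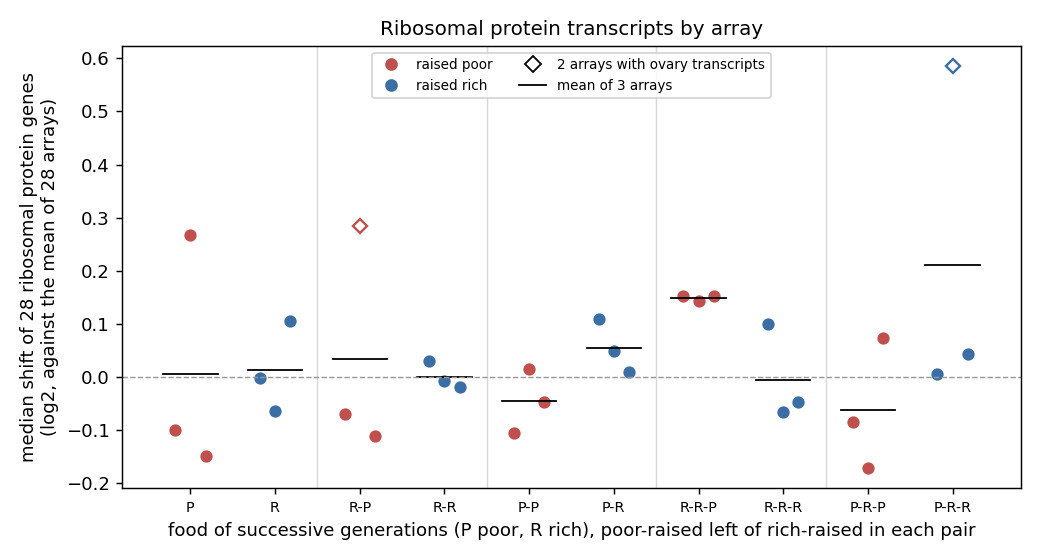
Median shift of the 28 ribosomal protein genes with a mean of at least 2 on each of 30 arrays (log2, against their means over the 28 arrays without ovary transcripts), by diet history, with poor-raised groups (red) left of rich-raised groups (blue) in each pair and the mean of 3 arrays as a line. The open diamonds, in R-P (0.28) and P-R-R (0.59), are the arrays that carried ovary transcripts, and the 3 arrays of R-R-P lie at 0.14 to 0.15.

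The co-variation was described by correlating, for each pair of genes, the deviations from the group means over arrays, which share the array's RNA and its normalization. The median r between 2 of the 28 brighter members was 0.55 over 30 arrays and 0.32 over 28. Over the same arrays it was 0.05 and 0.06 between all probe sets with a mean of at least 2, 0.23 and 0.20 between 20 such mitochondrial ribosomal protein genes, and 0.18 and 0.11 between 24 such proteasome genes. Between the 14 dim members it was 0.02 and 0.01. The brighter sets share the floor of 2 but were not matched by level. Means reached 8.63 for the members and 4.65 for the mitochondrial ribosomal protein genes. On 28 arrays the members most like the median of the others were RpS30 (r = 0.82), RpL23 (0.80) and RpL41 (0.76). RpL27 (-0.34), RpL34a (-0.33) and RpLP0-like (-0.23), all dim, were least like it. RpL10Aa (-0.05) was the brighter member least like it, followed by RpL37A (0.01), RpS28b (0.03) and RpL3 (0.07). Over 30 arrays RpL37A, RpS28b and RpL3 had an r of 0.62, 0.50 and 0.46.

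**Figure D5:**
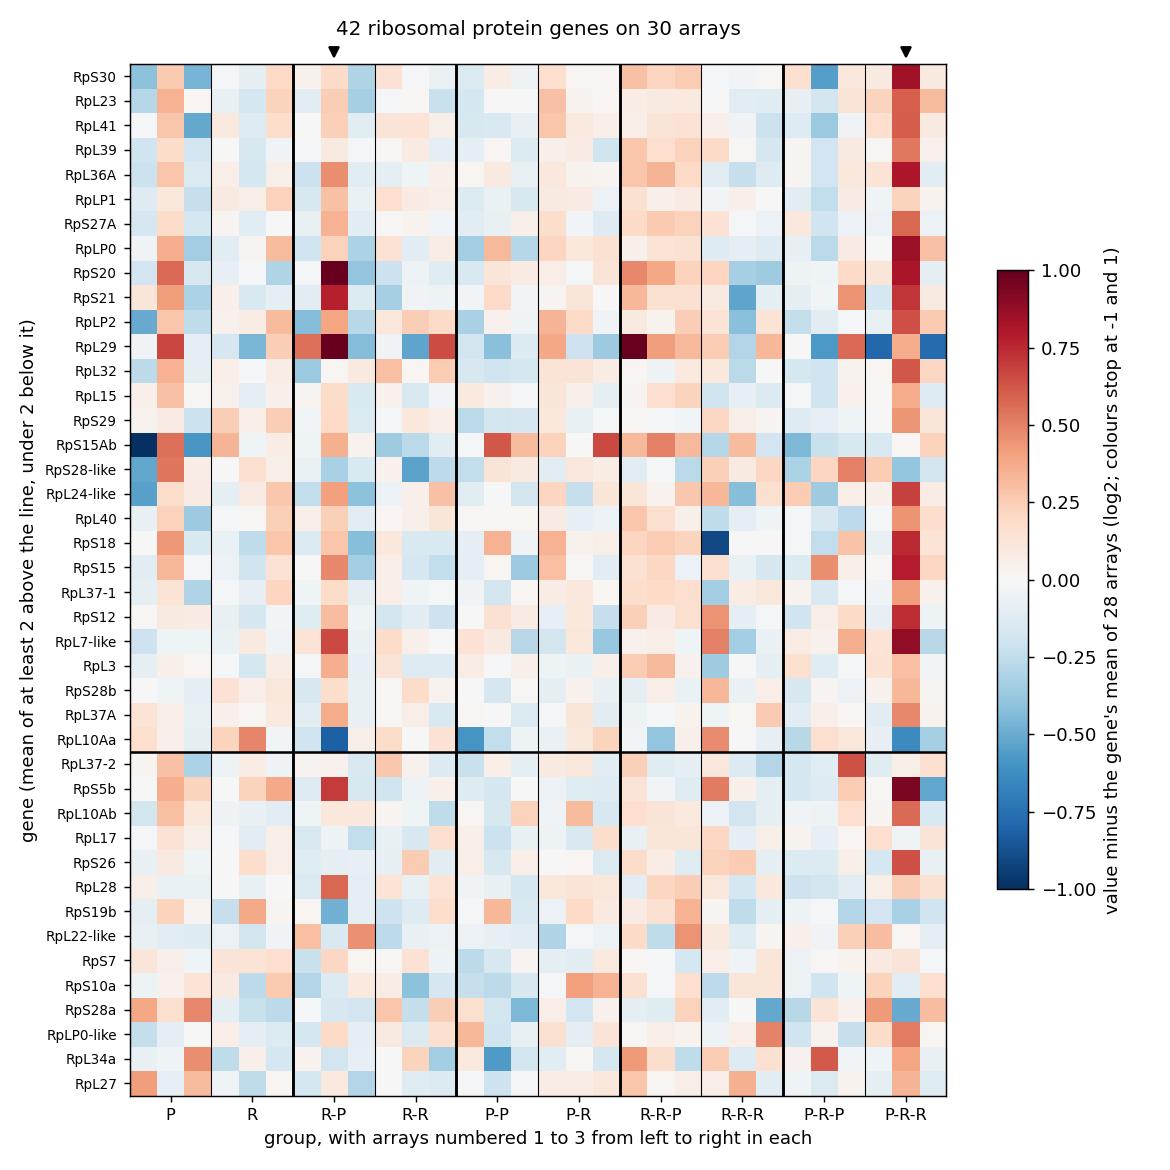
Value of each of 42 ribosomal protein genes on each of 30 arrays, minus the gene's mean over the 28 arrays without ovary transcripts (log2, colours stop at -1 and 1), with genes ordered by their correlation with the median of the other members and the 14 dim genes below the line. Triangles mark the 2 arrays with ovary transcripts, where most of the brighter genes are high and RpL10Aa is low.

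The 2 arrays with ovary transcripts stood out for the members as well, given here as a description of arrays that were singled out by other genes. Both lay above the range of the 28 other arrays for 10 of 42 members, or 23.8%, against 3.76% of all probe sets. These were RpLP2, RpS27A, RpL36A, RpL37A, RpS15, RpS20, RpS21, RpS5b, RpL7-like and RpL24-like. The R-P array exceeded the range for 14 members and the P-R-R array for 25, against 1139 and 1633 of all 15309 probe sets. Both lay below the range for RpL10Aa and RpS19b, 4.76% of the members against 2.76% of all probe sets.

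RpS20 read 4.28 and 3.76 on these arrays, in the order R-P and P-R-R, against 2.55 to 3.51 with a median of 2.91 on the 28 others. RpS5b, a copy of RpS5a known from the female germline of flies, read 0.98 and 1.22 against -0.24 to 0.80. RpL10Aa, a copy of RpL10Ab, read 3.92 and 4.10 against 4.15 to 5.23. RpS20 and RpS5b were thus higher than on any other array and RpL10Aa lower. RpS19b, the second copy of RpS19a and known from the germline, read 1.36 and 1.52 against 1.55 to 2.22. RpL7-like and RpL24-like, whose relatives in budding yeast act in ribosome assembly, read 4.49 and 4.71 against 3.45 to 4.33, and 3.67 and 3.94 against 2.71 to 3.59.

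Copies of a gene did not all share a sign. For own diet on average, RpS28b differed by -0.12 ± 0.05 (limma adjusted p = 0.375), RpS28a by 0.06 and RpS28-like by -0.02. RpS28b read 8.57, 8.53 and 8.49 in P against 8.72, 8.64 and 8.69 in R, with no overlap. In P-R-P it read 8.42, 8.60 and 8.52 against 8.62, 8.91 and 8.60 in P-R-R. RpL10Aa differed by -0.18 ± 0.09 and RpL10Ab by 0.08 ± 0.07, and RpL37-1 by -0.04 and RpL37-2 by 0.0027. None of these 7 genes was called, and differences between copies were not tested. The 16 copies and -like genes include 9 dim ones, whose values lie low on every array.

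Other genes of translation and growth are given beside the members. For own diet on average, limma called 0 of 71 mitochondrial ribosomal protein genes (median -0.02), 0 of 27 translation factor genes (-0.05), 0 of 33 ribosome biogenesis genes (-0.08) and 0 of 40 proteasome genes (-0.0097). Of these lists 4, 3, 1 and 1 genes had an unadjusted p under 0.05, beside 10.2% of all probe sets. Of 24 genes of insulin, TOR and Myc signalling, 1 rose and 1 fell, beside 1.84% of all probe sets called. Sesn, which encodes an inhibitor of TOR complex 1, rose by 0.31 ± 0.08 (limma adjusted p = 0.0309), and ImpL2, for a secreted protein that sequesters insulin-like peptides, fell by 0.31 ± 0.08 (adjusted p = 0.0323). Rack1, a ribosome-bound protein whose symbol does not follow the rule, differed by 0.08.

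In the F2 interaction limma called 0 genes of these lists. Their medians were -0.10 for the mitochondrial ribosomal protein genes, -0.24 for the translation factors, -0.18 for ribosome biogenesis, -0.21 for the proteasome and -0.06 for insulin, TOR and Myc, against -0.33 for the members. Without the 2 arrays that carried ovary transcripts they were -0.02, -0.11, 0.02, -0.18 and -0.02, against -0.20 for the members. Counts at an unadjusted p under 0.05 were 2 of 71, 6 of 27, 2 of 33, 9 of 40 and 3 of 24 with all 30 arrays, beside 7.64% of all probe sets. With 28 arrays they were 1, 3, 2, 4 and 2, beside 7.28%.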

How the data were processed

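Per the submitters' processing notes, the deposited values come from GCRMA, which models background from the base composition of probes, normalizes arrays to each other and condenses probes to 1 value for a probe set. No version of it is named. The base of the deposited logarithms is not stated, and they were taken as log2 values. Were they natural logarithms, differences would grow by a factor of 1.44 and limma's p-values would stay. Array depth does not apply, and the number of arrays limits precision.

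Genes were named from the platform annotation. Of 15309 probe sets, 13441 had 1 symbol, 555 several and 1313 none. All 42 members matched the RefSeq table by gene identifier, with the same symbol, and 0 shared all 30 values with another probe set. The closest 2 arrays differed by 0.179 on average.

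Limma 3.58.1 (R 4.3.3) fitted 1 mean for each of the 10 groups to the 30 arrays by lmFit and eBayes, without covariates or a filter, and again to 28 arrays. P-values were adjusted by Benjamini-Hochberg over 15309 probe sets for each of 14 contrasts and 3 F tests, and called under 0.05. The model was tested on simulated data. Samples were grouped by their group label.

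The members and lists were chosen with earlier results of these data known. Members are named where they had 1 of the 8 smallest p-values over the 10 groups, 1 of the 5 highest or lowest own-diet averages, a copy among the members, values outside the range of the other arrays on both ovary-transcript arrays, or 1 of the 3 highest or lowest correlations with the other members. Others are named after their values were seen. Other lists were mitochondrial ribosomal proteins, translation factors, ribosome biogenesis, insulin, TOR and Myc, and proteasome. Marker lists were for ovary and yolk, testis, accessory gland, muscle, fat body, midgut, Malpighian tubule, and eye and neuron. Alternatives were quantile normalization, median centring, a filter on dim probe sets, array weights, a trended robust variance, models with only the groups of a contrast, a replicate block, and leaving out arrays. A search of promoters for motifs was not run. Same-numbered samples of different groups had a mean correlation of deviations of 0.0081 (135 pairs), so the numbers were not taken to pair samples.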

Additional observations from a re-analysis of the deposited data

How the results depend on the processing

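Of 1611 alternative values over 39 settings, 1599 kept their direction and side of the threshold or stayed within the replicate spread, 8 gained a call and 4 moved beyond that spread. No called value changed sign. Without the 2 arrays that carried ovary transcripts, 5 of the members' medians took the other sign within that spread: 0.05 rather than -0.05 for parental diet in poor-raised F1, 0.05 rather than -0.01 for parental diet on average, -0.11 rather than 0.0033 for own diet in the F1 of rich-raised parents, 0.03 rather than -0.09 for the F1 interaction, and -0.06 rather than 0.01 for grandparental diet on average. With quantile normalization 1 member, RpS29, was called for own diet on average. Leaving out 1 array at a time gave 0 to 1 members called for own diet on average (RpS29, without the R-P array numbered 2 or the P-R-R array numbered 1), 0 to 1 in F0 and 0 to 1 for any difference among 10 groups (RpS15Ab, without replicate 2 of P). Without the 2 arrays that carried ovary transcripts, the members' median difference was -0.04 rather than -0.19 for own diet in the F2 of poor-raised grandparents, and -0.20 rather than -0.33 for the F2 interaction. Leaving out 1 array at a time these medians ran from -0.28 to -0.04 and from -0.40 to -0.20, with the highest values without replicate 2 of P-R-R. The cause was not tested. Quantile normalization and centring gave -0.24 for the F2 interaction, and moved the median of all probe sets by under 0.1. With the replicate block limma called 0 members in every contrast, although the numbers were not taken to pair the samples. Without replicates 1 and 3 of R-R, which leaves 1 array in that group with its spread taken from the others, the members' median for own diet on average was -0.03. The 14 dim members limit what can be seen of the copies. In single pairs of groups the 95% intervals had a median half-width of 0.32 with 30 arrays, and their outer bounds reached -1.36 and 1.25.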

Other observations

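Arrays of P differed among themselves more than those of most groups. Replicate 2 of P lay above the 28-array mean for 26 of the 28 brighter members, with a median shift of 0.27, beside -0.10 and -0.15 on replicates 1 and 3, while its ovary and yolk list had the lowest average of the 30 arrays (0.38) and its testis list (4.02) lay within the range of the others. RpS15Ab read 5.01 on that array against 2.80 and 3.88 on the others of P, and RpS28-like 5.07 against 4.01 and 4.61. The R arrays lay within narrower ranges, 4.42 to 4.80 for RpS15Ab and 4.53 to 4.69 for RpS28-like. What sets these P arrays apart was not tested.

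RpL10Aa ran against the other brighter members over all 30 arrays, but not over the 28 that lack ovary transcripts. Over 30 arrays its deviations had an r of -0.46 with the median of the other members, as a description over arrays that share RNA and normalization, and -0.05 over 28. Its F2 interaction was 0.61 ± 0.28 (limma adjusted p = 0.647), of the opposite sign to the 13 members with an unadjusted p under 0.05 below 0. On 28 arrays the interaction of RpL10Aa was 0.46, and 0 members above 0 had an unadjusted p under 0.05.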
